A study of Mus musculus with 12 samples.

Results

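The 10 genes Cda, Dctd, Cmpk2, Tk1, Dck, Upp1, Uck2, Dctpp1, Samhd1 and Tyms encode enzymes that salvage pyrimidines or set the supply of deoxynucleotides. They were listed by name with earlier results of these data known, and Cda, Dctd and Cmpk2 were chosen by their measured differences between the vectors. Each was read from the probe set whose platform annotation names that gene alone, taking the one with the highest mean log2 intensity over the 12 arrays. A value was obtained for 9 of the 10 genes, out of 18820 named genes on the array, and each of the 9 passed the filter on dim probe sets. Tyms, the thymidylate synthase gene, has no value here because both of its probe sets are also annotated to its pseudogene Tyms-ps. Tk1 and Uck2 have another probe set of their own, whose values are given beside the main one.

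The RNA came from EML1, a mouse haematopoietic progenitor line that was made by putting the retroviral vector LRARalpha403SN into bone marrow of male BDF1 mice, so every group carries that vector. A lentivirus then delivered pWPI without an insert or with TEL-AML1. TEL-AML1 joins the transcription factors ETV6 and RUNX1 and is the fusion of a childhood leukaemia of B-cell precursors. Cells of each vector were taken untreated and on day 5 and day 7 of IL7 with FLT3L, which gives 6 groups of 2 arrays, and the series asks which genes the fusion regulates before and during that treatment. The culture protocol describes B-cell induction as 50000 EML1 cells placed on OP9 stromal cells in medium holding 10 ng/ml of IL7 and 80 ng/ml of FLT3L, and sample titles name only the cytokines. The labels give no promoter, clone or transduced share, and do not say that the 2 arrays of a group came from separate cultures, so the spread behind each p-value is that between arrays and could be technical.

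Cells make pyrimidine nucleotides either from small precursors or by salvaging nucleosides. In salvage, nucleoside kinases trap the nucleoside by adding a phosphate, cytidine deaminase and deoxycytidylate deaminase turn cytosine compounds into uracil compounds on the way to thymidylate, and phosphorylases split the base from the sugar. SAMHD1 and DCTPP1 take deoxynucleoside triphosphates apart again. The balance of these steps also decides how blood cells handle nucleoside drugs such as cytarabine, which DCK activates, and which CDA and SAMHD1 inactivate in its nucleoside and triphosphate forms.

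Values are linear array intensities as deposited, with no read depth behind them, and array medians lay between 68.14 and 72.9. Differences are on the log2(intensity + 16) scale, which understates changes of dim genes, and a call is a limma p under 0.05 once adjusted by Benjamini-Hochberg over 12337 genes. Log2 values of the 2 arrays of a group correlated at 0.981 to 0.997, and those of arrays of different groups at 0.95 to 0.993. With 2 arrays a side, pairs can fail to overlap without a real difference. The share of all genes whose pairs do so is not given here, so an absence of overlap describes the arrays only. The progenitor genes Kit, Ptprc, Cd34, Myb, Gata2 and Spi1 were above the filter at 60.13, and Flt3 was not. Of 8 B-lineage genes with a probe set, 6 were above it, namely Cd79b, Vpreb1, Igll1, Ebf1, Pax5 and Il7r. Cd79a reached at most 49.1 on any array. The filter lies under the array medians, so passing it does not show expression. Group means were 63.75 to 68.07 for Igll1, 57.1 to 64.16 for Pax5, 68.34 to 77.57 for Vpreb1 and 68.98 to 79.41 for Cd79b. Il7r had a mean of 105.7 on day 7 TEL-AML1 arrays and 54.82 to 66.63 in the other groups. Ebf1, a transcription factor that B-cell precursors and stromal cells both express, had a mean of 48.9 on untreated and 236 on day 5 empty-vector arrays, where the stromal sum given next was also high. Of 22 stromal marker genes, 21 had a probe set, and their summed intensity was 2261 to 2722 on untreated arrays against 2650 to 11570 on treated ones. In such mixed RNA, fewer cells of one type and less RNA per cell cannot be told apart. Pdgfrb made up a large part of the untreated stromal sums and stayed near its untreated level. Its group means were 904.1 untreated, 938.4 on day 5 and 817.6 on day 7 with the empty vector. With TEL-AML1 they were 1216, 1229 and 1194, and it was called higher there in all 3 conditions. Pdgfrb was the only one of 18 stromal genes tested that passed between the vectors by limma. The median difference of the 18 was 0.045 untreated, -0.69 on day 5 and -0.48 on day 7, so on treated arrays the list leaned lower with TEL-AML1. Within each condition, arrays of the 2 vectors that bear the same number deviated together, so a count between the vectors is also given from a blocked fit, with that number as a block within condition, where it moved. For the 18 stromal genes that fit gave 1 higher and 13 lower with TEL-AML1 on day 5, and 1 higher and 3 lower on day 7. Over all 12337 genes it called 1838 and 2215 on those days, in either direction.

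The upstream bases of the genes on which the results turn are shown for the RUNX letters, since TEL-AML1 keeps the DNA-binding part of RUNX1. These are the 250 bases before a RefSeq start of Cda (chr4:138367956-138368205, minus strand), Dctd (chr8:48109708-48109957, plus strand), Cmpk2 (chr12:26468965-26469214, plus strand) and Samhd1 (chr2:157135097-157135346, minus strand) in GRCm38.p6, written from 5′ to 3′ on the gene's strand. Capitals mark TGTGGT or its reverse complement ACCACA.
Cda: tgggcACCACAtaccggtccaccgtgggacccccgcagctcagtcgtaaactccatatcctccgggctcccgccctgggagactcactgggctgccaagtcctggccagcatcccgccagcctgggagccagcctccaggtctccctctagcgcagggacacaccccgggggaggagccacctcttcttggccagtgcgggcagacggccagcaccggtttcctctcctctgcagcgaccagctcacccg
Dctd: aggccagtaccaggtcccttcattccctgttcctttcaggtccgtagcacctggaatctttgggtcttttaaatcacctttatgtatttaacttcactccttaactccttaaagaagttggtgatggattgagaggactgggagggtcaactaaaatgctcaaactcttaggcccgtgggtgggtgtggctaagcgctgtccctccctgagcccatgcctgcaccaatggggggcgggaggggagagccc
Cmpk2: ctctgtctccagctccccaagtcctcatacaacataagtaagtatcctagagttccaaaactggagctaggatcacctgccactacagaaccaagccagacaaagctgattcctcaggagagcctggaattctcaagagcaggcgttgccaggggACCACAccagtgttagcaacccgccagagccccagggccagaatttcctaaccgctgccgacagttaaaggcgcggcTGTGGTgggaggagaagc
Samhd1: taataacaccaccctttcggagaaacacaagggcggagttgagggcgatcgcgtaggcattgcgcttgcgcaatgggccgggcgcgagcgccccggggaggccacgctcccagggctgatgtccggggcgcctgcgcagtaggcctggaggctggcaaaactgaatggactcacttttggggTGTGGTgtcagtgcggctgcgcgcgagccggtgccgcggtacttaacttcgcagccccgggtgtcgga
All 10 genes matched an entry of the RefSeq table. Counting the first printed base of a match from the start, Cda held ACCACA 245 bases upstream, Cmpk2 held ACCACA at 95 and TGTGGT at 18, and Samhd1 held TGTGGT at 68. The window printed for Dctd held neither, and 14.05% of all 32851 upstream windows of that length held at least 1. Upp1 was the other listed gene with a match, at 64 bases before one of its starts. The interferon-stimulated response element, searched on both strands (2.98% of windows), and TTTNNCGC, letters that include the E2F site (4.28%), were in no window of the 10 genes. CCAAT, in 33.85% of windows, stood 27 bases before the Dctd start shown, and the same letters 82 bases before another. Its reverse complement ATTGG stood 130 and 31 bases before the start of Dctpp1. A match is a description of the letters and not a binding site.

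**Figure D1:**
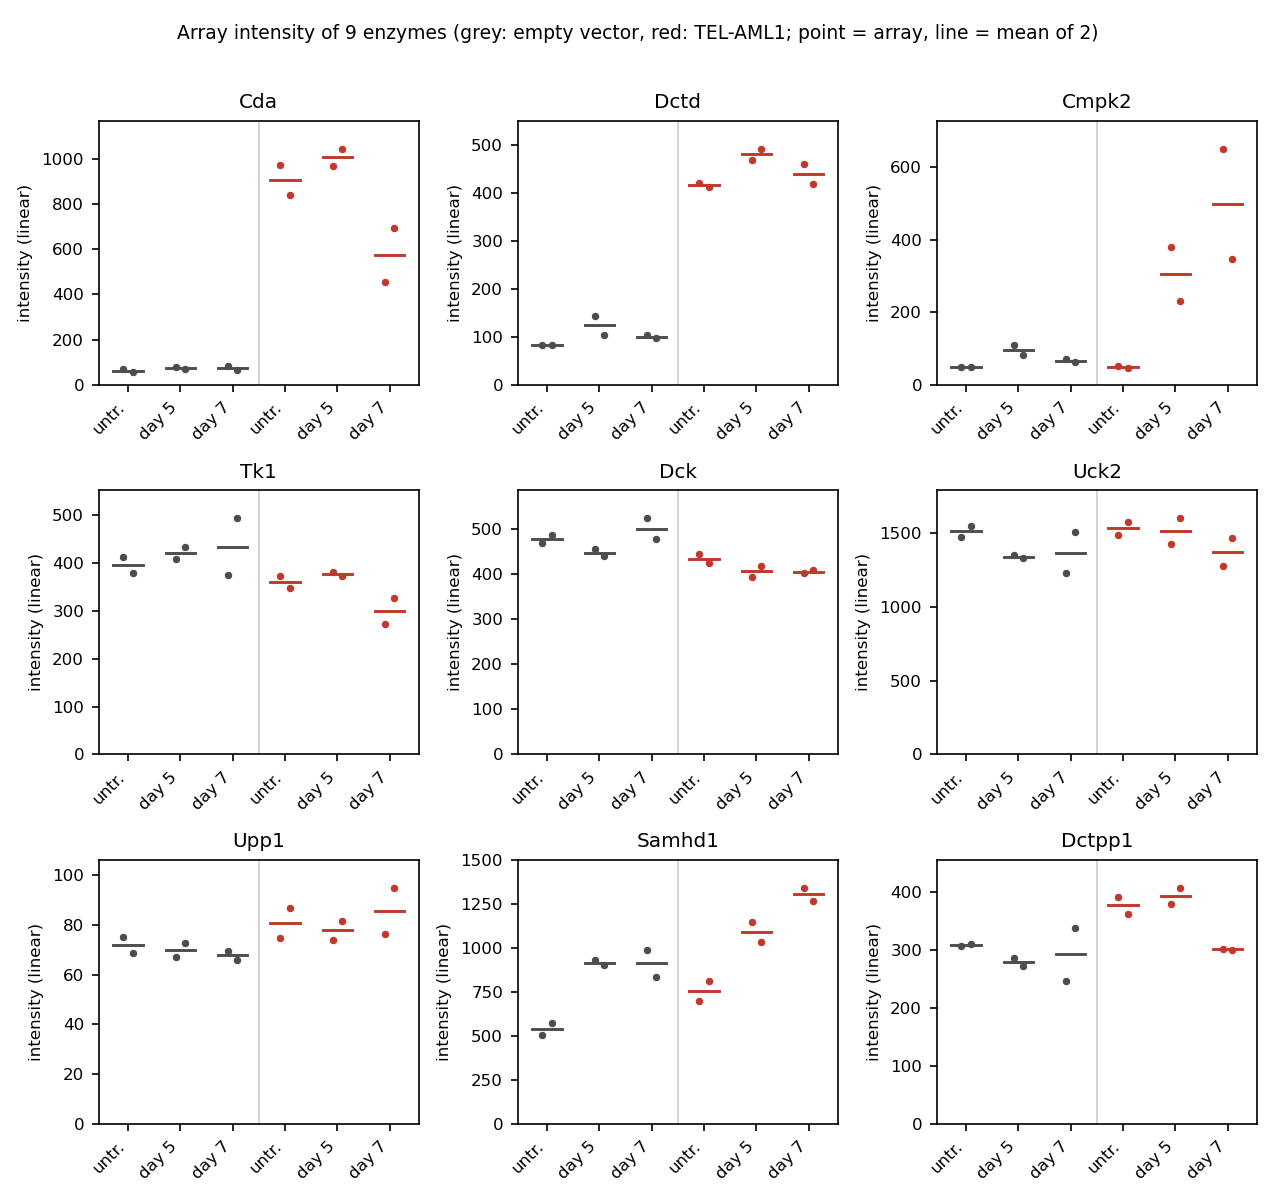
Linear array intensity (vertical axes, from 0) of 9 enzymes in the 6 groups (horizontal axes), 1 point per array and a line at the mean of 2 arrays, with grey for the empty vector and red for TEL-AML1. Every TEL-AML1 array lies above every empty-vector array for Cda and Dctd, whereas Cmpk2 is at 47.1 to 52.1 on all 4 untreated arrays.

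The deaminases Cda and Dctd carried much more signal with TEL-AML1 in all 3 conditions. Both were listed because of that difference, so their vector differences are a description with no test. Cda, which deaminates cytidine and deoxycytidine, read 69.4 and 58.0 on the untreated empty-vector arrays, 77.1 and 70.0 on day 5, and 82.2 and 67.1 on day 7. With TEL-AML1 it read 972 and 841 untreated, 968 and 1043 on day 5, and 457 and 693 on day 7. The lowest TEL-AML1 array thus lay far above the highest empty-vector array, and the empty-vector values were near the level of the filter, so the difference depends on the pseudocount. It was 3.53 ± 0.17 (SE, 2 arrays a side) untreated, 3.51 ± 0.17 on day 5 and 2.68 ± 0.17 on day 7. With a pseudocount of 1 these differences were 3.81, 3.76 and 2.90, and with 64 they were 2.92, 2.96 and 2.18.

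Dctd, which deaminates deoxycytidylate to the substrate of thymidylate synthase, read 82.4 and 82.3 on the untreated empty-vector arrays, 144 and 105 on day 5, and 104 and 97.2 on day 7. With TEL-AML1 it read 421 and 413 untreated, 469 and 492 on day 5, and 459 and 419 on day 7. These groups did not overlap in any condition. The difference was 2.14 ± 0.12 untreated, 1.84 ± 0.12 on day 5 and 1.97 ± 0.12 on day 7. Within the TEL-AML1 arrays, both day 7 readings of Cda lay under the other 4, while the untreated and day 7 readings of Dctd overlapped. Within the empty-vector arrays, both day 5 readings of Cda lay just above both untreated ones, those of day 7 overlapped with either, and both untreated readings of Dctd lay under the 4 treated ones.

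Between treated and untreated cells of 1 vector, the deaminases differed by less than 1 on the log2 scale. These comparisons share arrays with the vector differences that chose both genes, so their p-values are not independent of that choice. Dctd rose in empty-vector cells on day 5, by 0.50 ± 0.12 (adjusted p = 0.0189), and its day 7 value of 0.24 there did not pass (adjusted p = 0.181). The day 5 call was lost without either untreated empty-vector array or without the first day 5 one (adjusted p = 0.0581 to 0.125, difference down to 0.30). With the stromal level as a covariate it was 0.57 with an adjusted p of 0.149. The stromal sum of those day 5 arrays was 11570 and 8994, against 2261 to 2282 for their untreated controls. With TEL-AML1, Dctd differed from untreated by 0.20 on day 5 (adjusted p = 0.464) and 0.07 on day 7 (adjusted p = 0.813).

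Cda fell with TEL-AML1 on day 7, by 0.67 ± 0.17 on the log2 scale (adjusted p = 0.0403), on arrays that also entered its choice. That call was lost without any of 7 arrays, namely the 4 untreated ones, either day 5 empty-vector array and the first day 7 TEL-AML1 array, with adjusted p-values of 0.053 to 0.243. Without that last array the difference was -0.38. Day 5 with TEL-AML1 (0.15, adjusted p = 0.78) and both days in empty-vector cells (0.17 and 0.19, adjusted p = 0.576 and 0.501) did not pass.

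Cmpk2, the mitochondrial UMP-CMP kinase and a known interferon-induced gene, stood apart on treated TEL-AML1 arrays. It was listed for that pattern, so its vector differences and TEL-AML1 responses have no test. Untreated empty-vector arrays read 49.5 and 48.1, and untreated TEL-AML1 arrays read 52.1 and 47.1, all under the filter at 60.13. Empty-vector cells read 111 and 83.3 on day 5 and 70.8 and 63.2 on day 7. TEL-AML1 cells read 379 and 230.0 on day 5 and 650.0 and 348 on day 7. Each treated TEL-AML1 array thus exceeded every empty-vector array, while the pairs of TEL-AML1 arrays spread widely. The vector difference was 0.02 ± 0.27 untreated, 1.47 ± 0.27 on day 5 and 2.57 ± 0.27 on day 7. Treated against untreated TEL-AML1 cells differed by 2.25 on day 5 and 2.91 on day 7, each with an SE of 0.27. The response of TEL-AML1 cells exceeded that of empty-vector cells by 1.46 ± 0.38 on day 5 and 2.56 ± 0.38 on day 7. In empty-vector cells, Cmpk2 differed from untreated by 0.79 ± 0.27 on day 5 (adjusted p = 0.0713) and 0.36 on day 7 (adjusted p = 0.403). The listing did not use this comparison, but these arrays entered the vector differences that it did use. The day 5 value passed with a pseudocount of 1 (adjusted p = 0.0467) and with a fit of the compared groups alone (0.00832).

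Interferon-response genes as a group rose with treatment in both vectors. Of 24 such genes tested, 22 rose on day 5 and 19 on day 7 in empty-vector cells, and 18 and 21 in TEL-AML1 cells, with median differences of 1.76, 1.25, 1.77 and 2.12. The medians over all 12337 genes in those comparisons were -0.01, 0.01, 0.01 and 0.00, and 15.6%, 15.5%, 1.6% and 7.85% passed in either direction. With the stromal covariate the counts were 14, 17, 17 and 21. Between the vectors, 0 of the 24 passed in untreated cells by limma, 1 was higher with TEL-AML1 on day 5 and 3 on day 7, the last count lying between 2 and 8 as single arrays were left out. By limma the day 5 gene was Parp14, and the day 7 genes were Parp14, Rsad2 and Dhx58. The vector differences of Parp14 and Rsad2 were among the earlier results, so these counts describe and do not test. Over all genes, 8.9%, 7.32% and 11.3% passed between the vectors untreated, on day 5 and on day 7. The blocked fit gave 1 higher and 1 lower interferon-response gene untreated, 1 higher and 3 lower on day 5, and 11 higher on day 7. The summed signal of the 26 genes with a probe set was 2520 to 2824 on untreated arrays. On day 5 the empty-vector arrays summed to 14000 and 12120, which overlapped the TEL-AML1 sums of 13440 and 11140. Day 7 sums did not overlap, as both TEL-AML1 arrays (15200, 14940) lay above both empty-vector arrays (13670, 10790). Rsad2, the antiviral gene next to Cmpk2 in the genome, read 59.2 and 58.7 untreated, 139 and 159 on day 5 and 123 and 105 on day 7 with the empty vector. With TEL-AML1 it read 69.7 and 66.2 untreated, 181 and 151 on day 5, and 421 and 318 on day 7. The day 7 difference between the vectors for Rsad2 was 1.56. On day 5 its arrays overlapped between the vectors, whereas the Cmpk2 arrays did not. For Parp14, another gene of the list, the difference was 1.20 on day 5 and 1.85 on day 7. These differences were among the earlier results and are a description with no test. The part of interferon signalling in the Cmpk2 levels was not tested.

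The stromal sums were 11570 and 8994 on the day 5 empty-vector arrays, where Cmpk2 was at 111 and 83.3, and 9525 and 4301 on the day 5 TEL-AML1 arrays, where it was at 379 and 230.0. In each of these pairs the array with more stromal signal also had more Cmpk2. On day 7 the first TEL-AML1 array, with a stromal sum of 2650, had the highest Cmpk2 level of all 12. The second had a stromal sum of 5031 and less Cmpk2. In the first array's sum Pdgfrb made up 1066. Fn1, another gene of the stromal list, read 131 there, against 61.2 and 59.6 on untreated TEL-AML1 arrays. The part of stromal RNA in the Cmpk2 levels was not tested.

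**Figure D2:**
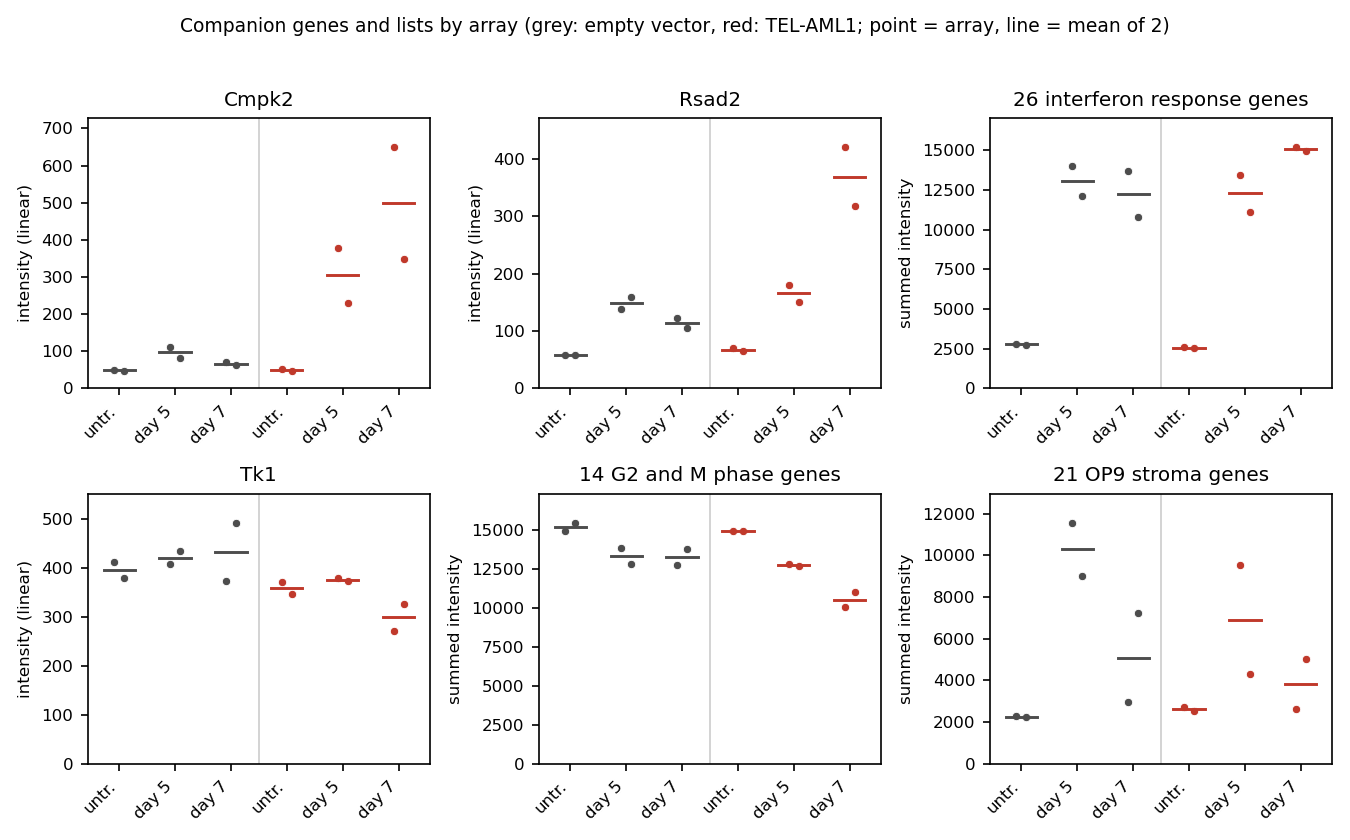
Linear intensity of Cmpk2, Rsad2 and Tk1 and summed intensity of 26 interferon-response, 14 G2 and M phase and 21 OP9 stroma genes (vertical axes, from 0) by group (horizontal axes), 1 point per array, a line at the mean of 2, grey for the empty vector and red for TEL-AML1. The interferon sum is high on all 8 treated arrays, while Cmpk2 reads 230.0 or more on the 4 treated TEL-AML1 arrays and 111 or less on the other 8.

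Among the kinases that trap nucleosides in the cytosol, Tk1 and Dck were lower with TEL-AML1 on day 7 and Uck2 did not pass in any comparison. Over the 6 members whose vector difference was tested, 1 passed untreated, 1 on day 5 and 3 on day 7. Over all genes tested, 8.9%, 7.32% and 11.3% passed in the same comparisons. Tk1, the S-phase thymidine kinase, read 374 and 494 on the day 7 empty-vector arrays and 272 and 328 on the day 7 TEL-AML1 arrays. The groups did not overlap, though the empty-vector pair spread by more than the gap between the groups. The difference was -0.50 ± 0.13 (adjusted p = 0.0281). It did not pass without the second day 7 empty-vector array or the first day 7 TEL-AML1 array (adjusted p = 0.111 to 0.18, difference -0.70 to -0.31), and the other Tk1 probe set gave -0.37 (adjusted p = 0.183). Untreated (-0.14, adjusted p = 0.686) and day 5 cells (-0.16, adjusted p = 0.535) did not pass. Elsewhere Tk1 read 380.2 to 434 with the empty vector and 347 to 380.3 with TEL-AML1.

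Dck, the deoxycytidine kinase, read 523 and 476 on the day 7 empty-vector arrays and 402 and 408 on the day 7 TEL-AML1 arrays. Both TEL-AML1 arrays were lower, and the difference was -0.29 ± 0.07 (adjusted p = 0.0308). It was lost without any of 7 arrays (adjusted p = 0.0548 to 0.134), namely the 4 untreated ones, the first day 7 empty-vector array and both day 7 TEL-AML1 arrays. Untreated arrays read 469 and 485 against 445 and 423 with TEL-AML1, and day 5 arrays 455 and 439 against 394 and 417. The pairs did not overlap there either, and the differences of -0.13 (adjusted p = 0.405) and -0.14 (adjusted p = 0.339) did not pass.

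Uck2, the uridine-cytidine kinase, read 1230 to 1553 with the empty vector and 1282 to 1602 with TEL-AML1, and the vectors overlapped. Its vector differences were 0.02, 0.17 and 0.01 (adjusted p = 0.985, 0.416 and 0.967), and their 95% intervals together ran from -0.23 to 0.41. The other Uck2 probe set gave 0.12, 0.19 and -0.02.

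Between the vectors, 8.9%, 7.32% and 11.3% of all genes passed untreated, on day 5 and on day 7. Of 22 S-phase genes, 0 passed between the vectors by limma in untreated, day 5 or day 7 cells. With 1 array left out, up to 3 were higher on day 5 and up to 4 higher or 2 lower on day 7, and the blocked fit gave 1 in each condition. Of 14 genes of G2 and M phase, 6 were lower with TEL-AML1 on day 7 (median -0.34, against -0.03 over all genes), among them the cyclin gene Ccna2 by -0.45, a pattern that was among the earlier results. That count was 1 without the first day 7 TEL-AML1 array, 2 after centring arrays on their medians and 10 in the blocked fit. Within TEL-AML1 cells, 14 of 14 fell between untreated and day 7 (median -0.56), and this count was 2 without the second untreated TEL-AML1 array. Within empty-vector cells, 2 of 14 fell over the same time (median -0.26), and this count was 9 with the stromal covariate, 5 with median centring and up to 7 without 1 array. Of the 14, 0 passed for a difference between the vectors' responses by limma, and 0 in each of those settings. Over all genes, 7.85% passed between untreated and day 7 with TEL-AML1 and 15.5% with the empty vector. The summed intensity of the 14 genes was 10050 and 11000 on the day 7 TEL-AML1 arrays and 12730 and 13750 on the day 7 empty-vector arrays. Whether the lower Tk1 and Dck signal goes with that was not tested.

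Upp1, the uridine phosphorylase, was dim on all arrays, at 66.1 to 75.2 with the empty vector and 74.1 to 94.9 with TEL-AML1. The day 7 pairs, 69.7 and 66.1 against 76.4 and 94.9, did not overlap, and their difference of 0.27 ± 0.10 did not pass (adjusted p = 0.136). Untreated and day 5 differences were 0.14 and 0.13 (adjusted p = 0.59 and 0.533).

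**Figure D3:**
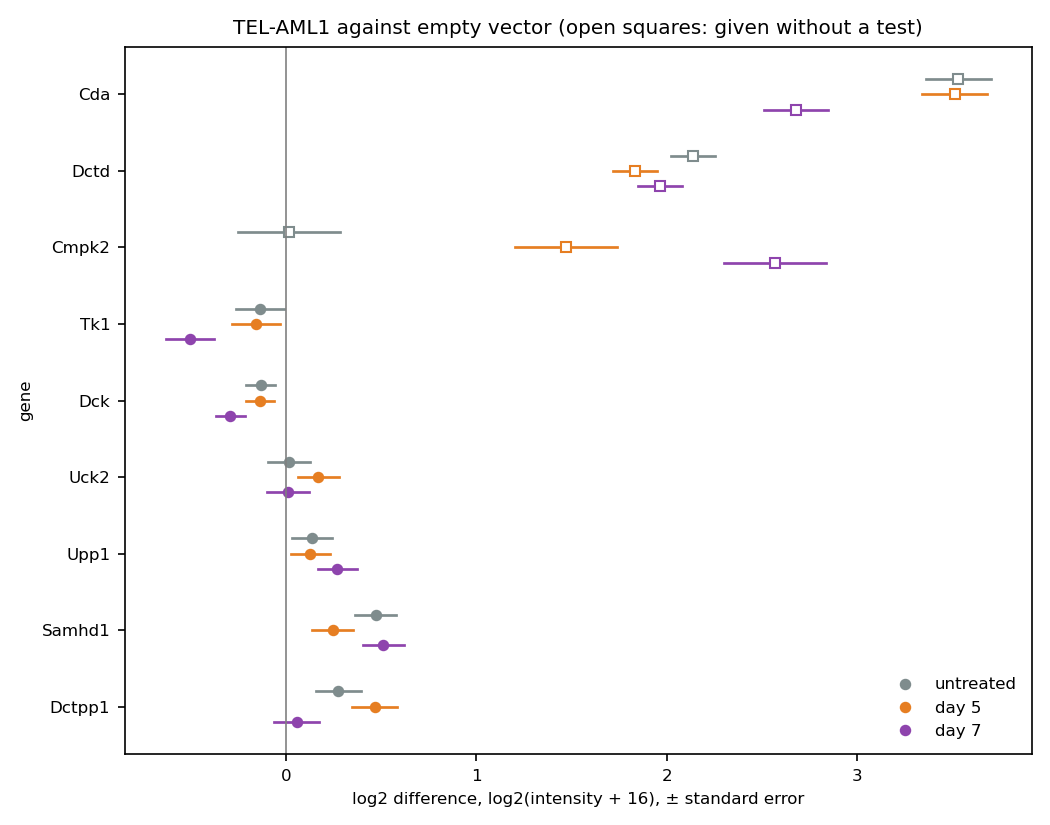
Difference between TEL-AML1 and empty-vector cells (horizontal axis, log2(intensity + 16) scale, bars of 1 SE) for 9 enzymes (vertical axis), coloured by condition, with open squares for members given without a test. Cda and Dctd lie between 1.84 and 3.53 in every condition, Cmpk2 goes from 0.02 to 2.57, and the other 6 enzymes lie between -0.50 and 0.51.

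Samhd1 and Dctpp1 encode enzymes that break deoxynucleoside triphosphates down. Samhd1, a triphosphohydrolase of all deoxynucleoside triphosphates, rose with treatment in both vectors and was higher with TEL-AML1 in untreated and day 7 cells. It read 508 and 576 untreated, 933 and 902 on day 5 and 989 and 839 on day 7 with the empty vector. With TEL-AML1 it read 702 and 814 untreated, 1149 and 1033 on day 5 and 1344 and 1269 on day 7. All 8 treated arrays exceeded all 4 untreated ones, and in each condition both TEL-AML1 arrays exceeded both empty-vector arrays.

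In empty-vector cells Samhd1 rose by 0.75 ± 0.11 on day 5 (adjusted p = 0.00329) and 0.74 ± 0.11 on day 7 (adjusted p = 0.00312). Of 9 members tested in empty-vector cells, 2 passed on day 5, Samhd1 and Dctd, and 1 on day 7, against 15.6% and 15.5% of all genes. In TEL-AML1 cells it rose by 0.52 ± 0.11 on day 5 (adjusted p = 0.0469) and 0.78 ± 0.11 on day 7 (adjusted p = 0.00262). There 1 of 8 members tested passed on day 5 and 2 on day 7, Cda being the other, against 1.6% and 7.85% of all genes. The 9 include Cda, Dctd and Cmpk2, and the 8 include Cda and Dctd. Those genes were chosen by vector differences on the same arrays, so these counts are a description. Both empty-vector responses of Samhd1 and its day 7 TEL-AML1 response passed without each single array. The day 5 TEL-AML1 call was lost without any of 10 arrays, all but those of day 7 with the empty vector (adjusted p = 0.052 to 0.376).

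Stromal signal was added to the model as a covariate after the data had been seen. The Samhd1 response was then 0.85 ± 0.21 on day 5 (adjusted p = 0.0546) and 0.79 on day 7 (adjusted p = 0.00598) in empty-vector cells, and 0.59 (adjusted p = 0.157) and 0.80 (adjusted p = 0.003) in TEL-AML1 cells. Within both day 5 pairs the array with more stromal signal had more Samhd1, with sums of 11570 and 8994 beside levels of 933 and 902 for the empty vector, and 9525 and 4301 beside 1149 and 1033 for TEL-AML1. On day 7 it was the reverse, as the first arrays, with the lower sums of 2954 and 2650, had the higher Samhd1 level of each pair. The part of stromal RNA in the Samhd1 levels was not tested beyond the covariate. The interferon sum rose on the same treated arrays as Samhd1, and its part in the result was not tested.

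Between the vectors, Samhd1 was higher with TEL-AML1 by 0.47 ± 0.11 untreated (adjusted p = 0.021) and 0.51 ± 0.11 on day 7 (adjusted p = 0.013), and the day 5 difference of 0.25 did not pass (adjusted p = 0.234). The untreated call was lost without either untreated empty-vector array or the second untreated TEL-AML1 array (adjusted p = 0.051 to 0.218). The day 7 call was lost without the second day 7 empty-vector array or the first day 7 TEL-AML1 array (adjusted p = 0.0566 to 0.0828).

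Dctpp1, the pyrophosphatase of dCTP, read 287 and 274 on the day 5 empty-vector arrays and 379 and 408 on the day 5 TEL-AML1 arrays, without overlap, and was higher by 0.47 ± 0.12 (adjusted p = 0.0417). That call was lost without any of 10 arrays (adjusted p = 0.0618 to 0.189) and held without either day 7 empty-vector array. Untreated pairs, 307 and 311 against 391 and 363, did not overlap either, and their difference of 0.28 did not pass (adjusted p = 0.239). On day 7 the arrays read 247 and 339 against 303 and 300.5, which overlapped (0.06, adjusted p = 0.818). Its treatment responses lay between -0.31 and 0.06 and did not pass.

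**Figure D4:**
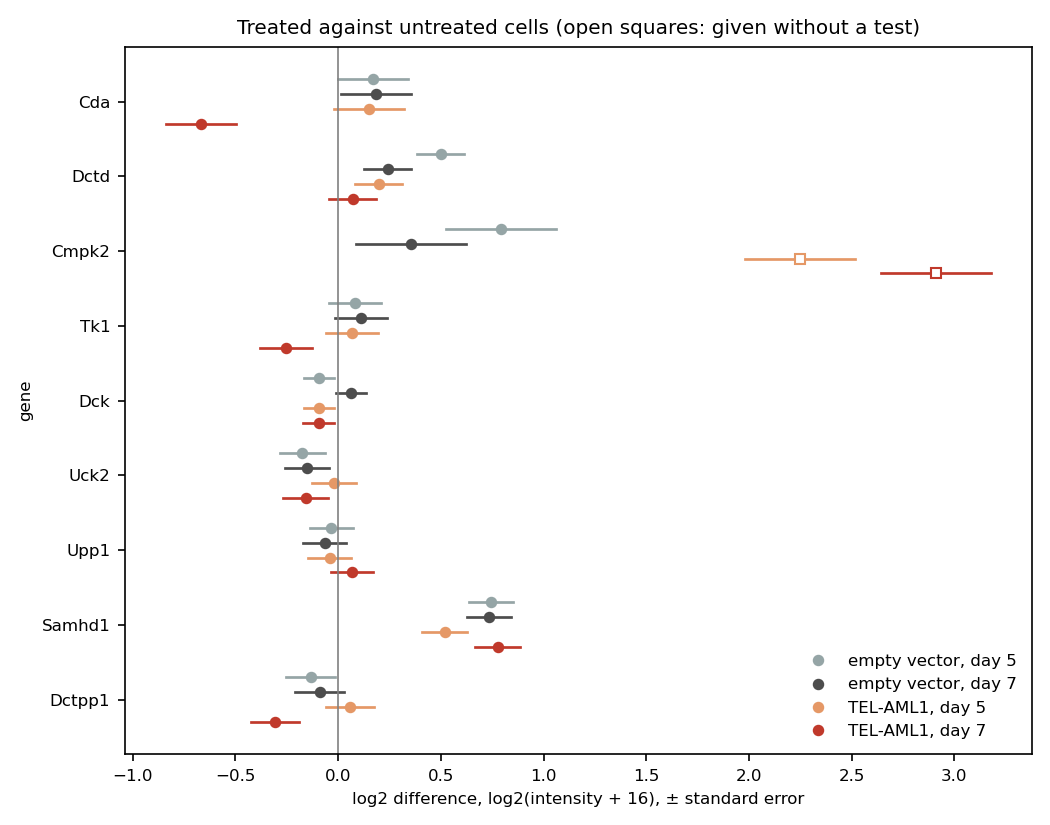
Difference between treated and untreated cells (horizontal axis, log2(intensity + 16) scale, bars of 1 SE) for 9 enzymes (vertical axis), coloured by vector and day, with open squares for values given without a test. Samhd1 lies between 0.52 and 0.78 in all 4 comparisons, and Cmpk2 at 2.25 and 2.91 in TEL-AML1 cells against 0.79 and 0.36 in empty-vector cells.

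Whether a response differed between the vectors was tested for the 6 members whose vector difference had not chosen them, and by limma 0 passed on either day. In all, 0.0324% of genes passed on day 5 and 0.0811% on day 7. At an unadjusted p under 0.05, 0 of the 6 passed on either day. For Cda, as a description with no test, the response with TEL-AML1 minus that with the empty vector was -0.02 ± 0.24 on day 5 and -0.85 ± 0.24 on day 7, and for Dctd it was -0.30 and -0.17. For Samhd1 the responses differed by -0.23 on day 5 and 0.04 on day 7, with 95% intervals from -0.57 to 0.11 and from -0.30 to 0.38. For Tk1 the day 7 value was -0.37 (adjusted p = 0.59).

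Among the other tested genes of nucleotide metabolism, Slc43a3 alone had a vector difference of more than 1 on the log2 scale. These genes come from lists chosen with earlier results known, and are given by counts. Slc43a3, a transporter of purine bases whose difference was among those earlier results and so has no test, read 1657 and 1512 on the untreated empty-vector arrays and 328 and 278 on the untreated TEL-AML1 arrays. The difference was -2.33 untreated, -1.74 on day 5 and -2.15 on day 7. Of the 7 other nucleoside and base transporters, 2 were lower with TEL-AML1 untreated (1 in the blocked fit), 1 on day 5 and 1 on day 7. Over all genes, 8.9%, 7.32% and 11.3% passed in these comparisons, in either direction. Slc29a2, an equilibrative nucleoside transporter, was lower by -0.47 untreated and -0.48 on day 7 (adjusted p = 0.00457 and 0.00398). Its untreated call was lost without the first empty-vector or the second TEL-AML1 array of that condition.

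Of 12 other nucleoside and nucleotide kinases, 1 was higher with TEL-AML1 untreated, 0 on day 5 and 1 on day 7 by limma, against 8.9%, 7.32% and 11.3% of all genes called in either direction. The day 5 count was 2 higher with the stromal covariate, and 1 higher and 1 lower in the blocked fit. The day 7 count was up to 4 without 1 array, and 3 with the stromal covariate or in the blocked fit. The gene higher in untreated cells and on day 7 was Tk2, the mitochondrial thymidine kinase, which read 159 and 159 untreated with the empty vector against 212 and 223, and 168 and 154 on day 7 against 231 and 257. The difference was 0.41 untreated (adjusted p = 0.0201), lost without any of the 4 untreated arrays, and 0.55 on day 7 (adjusted p = 0.00402), which held without each single array. Of 9 nucleotidases and hydrolases, 2 passed untreated, 1 on day 5 and 1 on day 7, and in the blocked fit 3, 3 and 4. Nt5c3, a pyrimidine nucleotidase, was higher in all 3 conditions by 0.60, 0.50 and 0.70 (adjusted p = 0.00846, 0.0263 and 0.00331). On day 7 its empty-vector arrays read 279 and 240.3 and its TEL-AML1 arrays 415 and 449, and that call held without each single array. Its untreated call was lost without the first empty-vector or the second TEL-AML1 array, and its day 5 call without either empty-vector or the first TEL-AML1 array of that day. Nudt1, which removes oxidised purine nucleotides, was lower in untreated cells by -0.58 (adjusted p = 0.017), and lost that call without any of the 4 untreated arrays.

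Pnp, the purine nucleoside phosphorylase, was the 1 of 3 phosphorylase and catabolism genes that passed on day 5 (0.71) and day 7 (0.73), higher with TEL-AML1. Those calls were lost without the second empty-vector or the first TEL-AML1 array of day 5, and without the first empty-vector or either TEL-AML1 array of day 7. In the blocked fit 2 of the 3 passed on day 7. The 5 genes of new pyrimidine synthesis and the 6 of thymidylate and folate supply had 0 vector calls by limma in the 3 conditions, while the blocked fit gave 1 of the former on day 5 and 1 of the latter on each treated day. Of 3 ribonucleotide reductase genes, 1, Rrm2b, was lower in untreated cells by -0.31 (adjusted p = 0.0464). That call was lost without any untreated array or any treated TEL-AML1 array. Of 5 purine counterparts, 2 were lower untreated, 1 was higher on day 5, and 1 was higher and 2 lower on day 7. Over all genes, 8.9%, 7.32% and 11.3% passed in these comparisons, in either direction. Aprt was lower by -0.49 untreated and -0.44 on day 7, Impdh1 by -0.49 on day 7, and Adk was higher by 0.57 on day 5. Impdh1, of guanine nucleotide synthesis, was lower by -0.81 in untreated cells (adjusted p = 0.00106). The adenosine kinase gene Adk was higher by 0.97 on day 7 (adjusted p = 0.000604). Both calls held without each single array.

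Of 6 genes of thymidylate and folate supply, 3 fell on day 5 and 5 on day 7 in empty-vector cells, and 1 and 2 fell in TEL-AML1 cells, with medians of -0.45, -0.49, -0.14 and -0.41. Over all genes 15.6%, 15.5%, 1.6% and 7.85% passed in these comparisons, in either direction. With the stromal covariate the counts of the 6 were 1, 5, 0 and 2. In empty-vector cells the count went down to 1 on either day without the first untreated empty-vector array. In TEL-AML1 cells it stayed at 1 on day 5 and lay between 1 and 4 on day 7 as single arrays were left out. Mthfd2, the mitochondrial folate enzyme, passed in all 4 comparisons, and in each without each single array. It read 899 and 832 untreated, 411 and 443 on day 5 and 372 and 384 on day 7 in empty-vector cells, a change of -1.16 by day 7 (adjusted p = 7.33e-05). In TEL-AML1 cells it read 806 and 832 untreated, 457 and 490 on day 5 and 350 and 292 on day 7, a change of -1.32 (adjusted p = 2.17e-05). With the stromal covariate its day 5 change in TEL-AML1 cells did not pass (adjusted p = 0.061).

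Of 5 genes of new pyrimidine synthesis, 1 fell on day 5 and 3 on day 7 in empty-vector cells, and 0 passed in TEL-AML1 cells by limma. The day 7 medians were -0.39 with the empty vector and -0.36 with TEL-AML1, and the day 7 count in TEL-AML1 cells was 3 with the stromal covariate and up to 3 without 1 array. The CTP synthase gene Ctps fell by 0.49 on day 5 and 0.53 on day 7, and these calls were lost without either untreated empty-vector array, the second day 5 one and the first day 7 one. Umps and Cad, the other 2, fell by 0.52 and 0.39 on day 7, lost without any untreated array or the first day 7 empty-vector array, and for Umps also without any treated TEL-AML1 array. The dUTPase gene Dut fell in empty-vector cells on day 7 by 0.80 (adjusted p = 0.017), lost without the second untreated or the first day 7 empty-vector array.

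Of 4 genes listed as polynucleotide deaminases, Adar rose in all 4 treatment comparisons, by 0.76, 0.68, 0.97 and 1.01, and passed in each without each single array. With the stromal covariate the first of these did not pass (adjusted p = 0.0964). ADAR deaminates adenosine in double-stranded RNA and is not a cytidine deaminase. Apobec1, which deaminates cytidine in RNA, rose in TEL-AML1 cells by 0.76 and 0.73. Its calls were lost without either untreated TEL-AML1 array, either day 5 one and the second day 7 one. With the stromal covariate its day 5 change was 0.49 and did not pass (adjusted p = 0.243). In the vector comparisons 0 of the 4 passed by limma, and 1 was lower on day 7 in the blocked fit.

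**Figure D5:**
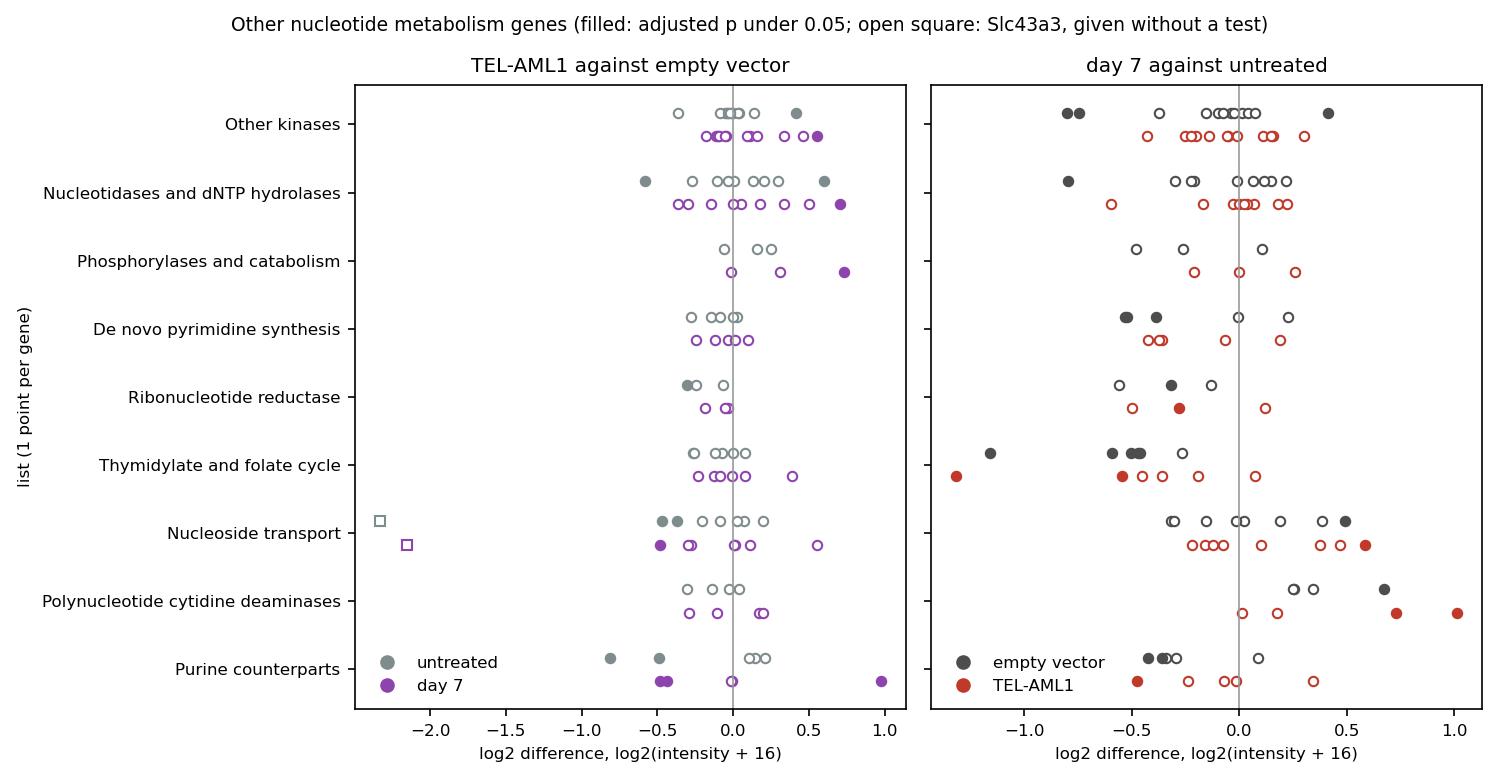
Differences of single genes (points, horizontal axes on the log2(intensity + 16) scale) in 9 lists of nucleotide genes (vertical axis), for TEL-AML1 against empty vector untreated and on day 7 (left) and for day 7 against untreated in each vector (right), filled where the adjusted p is under 0.05, with open squares for Slc43a3, given without a test. Slc43a3 stands alone on the left at -2.33 and -2.15, and Mthfd2 lies lowest on the right at -1.16 and -1.32.

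Over the 12 arrays, which share 6 groups, the levels of Cda and Dctd had a Pearson correlation of 0.975, those of Cmpk2 and Samhd1 of 0.845, and those of Dctd and Dck of -0.837, as a description of these arrays. Cda and Dctd were both chosen by their vector difference, so the high correlation between them followed in part from that choice. The tested genes with the most similar pattern to Cda were Itgb4 (0.997), Kyat3 (0.991) and Arfgef3 (0.98). For Dctd they were Dclk2 (0.994), Mpp1 (0.993) and Fut11 (0.982). For Cmpk2 they were Ifi208 (0.984), Gadd45a (0.961) and Adck5 (0.959), and for Tk1 Iqgap3 (0.931), Tcf19 (0.911) and Ext2 (0.904).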

How the data were processed

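Per the labels' protocols, TRIzol-extracted and column-cleaned total RNA was turned into biotinylated cRNA for Affymetrix arrays. The authors deposited 1 linear intensity per probe set and array (35556 probe sets). Steps they took before that (background, summarisation, normalization) are not given in the sources used here. Platform annotation listed 1 gene for 21218 probe sets, several for 1881 and was without an entry for 12457. Of the first, 21185 matched GRCm38.p6 by Entrez identifier. Genes with a mean intensity above the 40th percentile (60.13) were kept. A model of 6 group means was fitted to log2(intensity + 16) with limma 3.58.1 in R 4.3.3 and adjusted by Benjamini-Hochberg within each of 9 contrasts, with 6 residual and 4.22 prior degrees of freedom, and was tested on simulated data. The members and gene lists were chosen with earlier results of these data known. Named genes were the members, up to 4 called genes per list and contrast with the smallest adjusted p, Rsad2, and the 3 genes closest in pattern to Cda, Dctd, Cmpk2 and Tk1, of which a part is given. The alternatives were other scalings, filters, pseudocounts, probe set rules, array weights, only the compared groups, replicate blocks and leaving out each array. The labels do not say what the array number marks. Differences between arrays 1 and 2 correlated over genes at 0.376 to 0.543 between the vectors within a condition (3 pairs) and at -0.241 to 0.156 across conditions (the other 12), so the numbers were taken, from the data, to pair the vectors within a condition. RefSeq upstream sequences came from a GRCm38.p6 table, whose build was not compared with that of the array design.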

Additional observations from a re-analysis of the deposited data

How the results depend on the processing

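Counts of members called moved as follows, and 0 member calls changed direction. The counts for treatment include genes chosen by vector differences on the same arrays, so they are a description. For TEL-AML1 against empty vector, the untreated count of 1 became 2 with array weights and 2 with only the compared groups, and 0 to 2 without single arrays. The day 5 count of 1 became 0 with no filter, only the compared groups or the replicate block, and 0 to 1 without single arrays. The day 7 count of 3 became 0 with array weights or only the compared groups, and 0 to 3 without single arrays. For treatment of empty-vector cells, the day 5 count of 2 became 3 with a pseudocount of 1, only the compared groups or either replicate block, 0 with the stromal covariate and 1 to 3 without single arrays, and the day 7 count of 1 became 1 to 2. For TEL-AML1 cells, the day 5 count of 1 became 0 with median centring, no filter, a pseudocount of 1, only the compared groups, the replicate block or the stromal covariate, and 0 to 1 without single arrays. The day 7 count of 2 became 1 with no filter, a pseudocount of 1 or the replicate block, 3 with array weights or the block within condition, and 1 to 3 without single arrays. The causes were not tested. The interaction counts stayed at 0 in all of these. The array numbers paired the vectors within a condition and not the conditions, so the block within condition bears on comparisons of the vectors, while its spread leaves out what the arrays of a condition share and is too small for treated against untreated cells. It changed 0 member calls between the vectors and, of the named genes, the untreated call of Slc29a3 (adjusted p = 0.0551). Calls between the vectors over all genes went from 1098 to 1491 untreated, 903 to 1838 on day 5 and 1392 to 2215 on day 7. Within treatment it added Cmpk2 on day 5 with the empty vector (0.79, adjusted p = 0.0103) and Tk1 on day 7 with TEL-AML1 (-0.26, adjusted p = 0.0444). Over all genes, calls in untreated cells ranged from 477 to 2606 around 1098, and in day 5 TEL-AML1 cells from 80 to 905 around 198. The stromal marker count on day 5 in empty-vector cells, 17 of 18, was 0 with the stromal covariate by construction and 0 without the second untreated array. The B-lineage gene Ebf1, called higher there, was at -0.24 with that covariate. Signal over background limits Upp1, untreated Cmpk2 and empty-vector Cda, which lie near the filter.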
